A study of Mus musculus with 16 samples.

Results

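The cells described here are bone marrow cells that ranked high for surface CD135 and CD27 and low for CD150, a phenotype linked to lymphoid-primed progenitors. They were chosen by surface protein alone, in 3 barcoded bone marrow libraries with the needed antibody tags: LARRY main mouse 3, LARRY main mouse 4 and LARRY replicate mouse 1. Among cells with at least 100 tag counts (unique molecular identifiers, UMI), each tag was expressed as ln(UMI + 1) minus the mean of the cell over all tags. A cell was taken when it lay in the top 25% of its library for CD135 and for CD27 and in the bottom 50% for CD150. This gave 137 cells of main mouse 3, 63 of main mouse 4 and 254 of replicate mouse 1, in all 454 of 7120 cells with enough tag counts, or 6.38%. The whole series held 95930 cells in 16 libraries. All other cells with enough tag counts in the same library, 6666 in all, formed the comparison. Both groups thus came from the same animals and the same staining. LARRY marks cells with lentiviral DNA barcodes, and the labels describe these cells only as immune cells of mouse bone marrow. The sources used here do not give strain, age or sorting.

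Blood forms from a small pool of stem cells through multipotent progenitors that lose options step by step. CD135, the Flt3 receptor tyrosine kinase, appears as progenitors leave the stem cell state and marks those that retain lymphoid potential. CD27 belongs to the tumour necrosis factor receptor family and is carried by most early progenitors, while CD150, a SLAM receptor, is kept by stem cells and by progenitors of platelets and red cells. DNA methylation at many CpG sites is gained or lost along these paths, and other sites keep a pattern inherited by all offspring of a cell.

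Methylation was read with scTAM-seq, a targeted assay of single cells run on Mission Bio's Tapestri platform. DNA is first digested by a restriction enzyme blocked by methylation, and the CpG sites that survive are amplified cell by cell. Here 1 read or more counted as methylated, and a share is the percent of cells with such a read. The panel held 663 amplicons that the files name by identifier only, so no gene, position or sequence is given. Among cells with enough tag counts, CD135/CD27-high cells had a median of 43373, 40339 and 66390 reads in main mouse 3, main mouse 4 and replicate mouse 1, against 46037, 36210 and 68269 in other cells. They also had more tag UMI, with medians of 321, 271 and 408.5 against 210, 211 and 288. The 3 libraries shared between 5 and 12 cell barcodes with each other. With 63 cells in main mouse 4, exact 95% binomial intervals of the shares named below reached a half-width of 12.8 percentage points, against at most 8.65 and 6.31 points in main mouse 3 and replicate mouse 1. These reads carry no molecular identifiers, so the intervals cover counting error only.

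The values that chose the cells are given as a description. CD27 had a median of 48, 40 and 74 UMI in CD135/CD27-high cells of main mouse 3, main mouse 4 and replicate mouse 1, against 10, 6 and 13 UMI in other cells. CD135 was a weak tag, with medians of 6, 5 and 8 UMI against 1, 2 and 1. Its means were 7.06, 6.86 and 11.3 UMI against 8.03, 6.57 and 12.2, so other cells included some with high CD135 counts. High counts among other cells were not particular to CD135. In main mouse 3 their means were 9.08 UMI for CD127, 22.6 for CD34 and 8.09 for the red cell tag Ter-119. In CD135/CD27-high cells these means were 1.04, 3.66 and 1.21 UMI. Whether the same cells were high for many tags at once was not tested. CD150 had medians of 0, 1 and 0 UMI against 1, 2 and 2. The thresholds cut through continuous values. In replicate mouse 1, the 28 chosen cells in the lowest 5% of ranks above the CD135 threshold had a median of 4.5 UMI, and the 24 cells just below it, chosen in all else, had 3.5 UMI. At the CD27 threshold of the same library these medians were 41 and 29 UMI.

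Tags that the rule did not use bore out only a part of the phenotype. CD48, which multipotent progenitors gain as they leave the stem cell state, had medians of 62, 51 and 113 UMI in CD135/CD27-high cells, against 40, 38 and 62 UMI in other cells. Sca-1, carried by stem and multipotent cells, had medians of 6, 5 and 4 UMI against 2, 3 and 2. Both were higher in all 3 libraries, and so was the receptor c-Kit, with 21, 22 and 32 against 18, 16 and 26 UMI. These medians are not corrected for the larger tag totals of CD135/CD27-high cells. In proportion, the c-Kit rise was smaller than that of the median tag total in main mouse 3 and replicate mouse 1. The CD48 rise was only slightly larger than that of the median tag total in main mouse 3 and main mouse 4. In centred ln units CD48, Sca-1 and c-Kit differed by means of 0.45, 0.47 and 0.26. The class II molecules I-A/I-E had medians of 43, 25 and 38 UMI against 16, 13 and 14. CD34 and CD127, the interleukin 7 receptor chain, are part of lymphoid-primed and lymphoid phenotypes but were not higher. CD34 had a median of 3 UMI in CD135/CD27-high cells of every library, against 3, 5 and 3 in other cells, and CD127 had 1 UMI in every library, against 1, 2 and 1. In centred ln units both were lower in 3 of 3 libraries, with mean differences of -0.31 for CD34 and -0.37 for CD127, CD135/CD27-high minus other cells. The cells are therefore called CD135/CD27-high here and not lymphoid-primed.

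Tags of other lineages lay below those of other cells in centred ln units, except I-A/I-E, a dendritic cell marker, which lay above by 0.68. The platelet lineage tags CD41 and CD9 and the adhesion molecule ESAM differed by a mean of -0.54, -0.61 and -0.50 in centred ln units, CD135/CD27-high minus other cells, each negative in 3 of 3 libraries. Ter-119 of red cells (-0.39), FceRIa of mast cells (-0.33), CD115 of monocytes (-0.31) and CD16/32 (-0.35 in 2 libraries) also lay below. Medians of these 4 tags were 0 or 1 UMI in CD135/CD27-high cells, against 0 to 2 UMI in other cells. Because the values of a cell are centred on its mean over tags, a high CD27 value lowers all others, so these differences are descriptions of the same counts that chose the cells and were not tested.

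**Figure D1:**
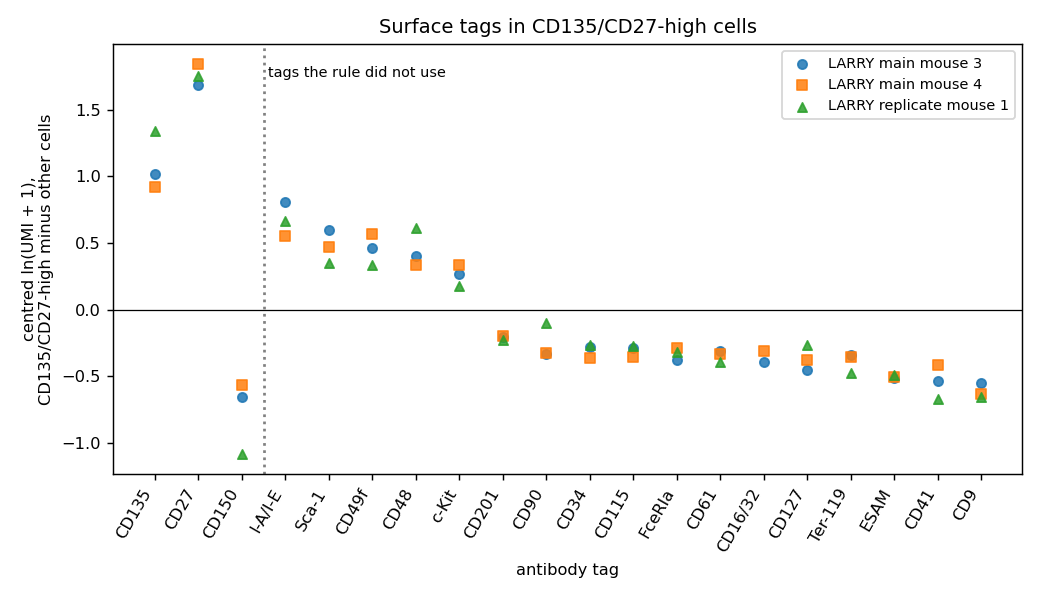
Difference in centred ln(UMI + 1) between CD135/CD27-high and other cells for each antibody tag, 1 point per library. Left of the dotted line are the 3 tags that chose the cells. I-A/I-E, Sca-1, CD49f, CD48 and c-Kit lay above 0 and every other unused tag below 0 in each library where it was measured.

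CD135/CD27-high cells differed in methylation from the other cells of their library at many sites, in both directions. Of 593 amplicons with a mean share of 2 to 98%, 75 were methylated in more and 94 in fewer CD135/CD27-high cells, or 12.6% and 15.9% of those tested and 28.5% in all. The median difference was 10.2 percentage points among those called higher and -9.68 points among those called lower. Over all amplicons tested, the median absolute difference was 2.82 points. The difference had the same sign in 3 of 3 libraries at 73 of the 75 and 91 of the 94, against 321 of all 593 tested. The calls were made in these same libraries, so a shared sign is partly built in. These calls are from edgeR's quasi-likelihood test of read-positive against read-negative cells, within libraries, at a Benjamini-Hochberg adjusted p under 0.05. This test partly pools its estimate of spread over amplicons, so its p-values do not rest only on the spread of a single amplicon between libraries. At an unadjusted p under 0.05 there were 216. The count rested on all 3 libraries and fell to 103 without main mouse 3, 85 without main mouse 4 and 79 without replicate mouse 1. Of these, 101, 85 and 73 were among the 169. On the same numbers of cells DESeq2 called 72 amplicons, and all 72 were among the 169.

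Among the sites methylated in more CD135/CD27-high cells, AMPL388788 showed the largest difference in percentage points, though the log odds difference was larger at AMPL366159 (2.56), AMPL365895 (2.05) and AMPL371265 (1.90). AMPL388788 was read in 86.9%, 84.1% and 87.8% of CD135/CD27-high cells of main mouse 3, main mouse 4 and replicate mouse 1, against 58.7%, 60.6% and 51.7% of other cells. The exact 95% interval for the 63 cells of main mouse 4 ran from 72.7% to 92.1%. AMPL366088 was read in 81.8%, 79.4% and 78.3% of CD135/CD27-high cells, against 53.1%, 55.3% and 47.2% of other cells. For both, the groups were far apart in every library. The differences were 29.3 ± 6.35 and 28.0 ± 3.59 points (SD, n = 3), with edgeR log odds differences of 1.69 (standard error 0.133, adjusted p = 3.91e-08) at AMPL388788 and 1.35 (standard error 0.114, adjusted p = 5.56e-08) at AMPL366088. Log odds are natural logarithms here.

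Several further sites were read in most CD135/CD27-high cells. AMPL365895 was read in 96.4%, 96.8% and 95.3% of them, against 77.0%, 77.6% and 72.6% of other cells. AMPL366159 was read in 97.1%, 95.2% and 98.4%, against 81.6%, 81.2% and 71.0%. AMPL371265 was read in 89.8%, 90.5% and 98.4%, against 73.9%, 75.4% and 70.5%. At these sites fewer than 11% of CD135/CD27-high cells lacked a read, in each library. The other 5 of the 10 largest rises, AMPL365894, AMPL371589, AMPL366009, AMPL366090 and AMPL366082, averaged 66.4 to 92.4% in CD135/CD27-high cells and 46.2 to 71.7% in other cells. All 10 had edgeR adjusted p of at most 1.59e-05.

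Among the sites methylated in fewer CD135/CD27-high cells, AMPL365938 came first. It was read in 16.8%, 7.94% and 13.8% of CD135/CD27-high cells, against 41.9%, 42.3% and 40.8% of other cells. Other cells were nearly equal between libraries, and the highest CD135/CD27-high value lay far below the lowest of them. AMPL377174 was read in 59.1%, 57.1% and 55.9% of CD135/CD27-high cells, against 84.8%, 86.8% and 83.2% of other cells. Its difference of -27.6 ± 1.98 points (SD, n = 3) varied little between animals. AMPL371137 stood at 47.4%, 46.03% and 49.6%, against 72.5%, 71.7% and 70.3%. The edgeR log odds differences were -1.48 (standard error 0.132, adjusted p = 7.57e-08) at AMPL365938, -1.40 (standard error 0.110, adjusted p = 3.91e-08) at AMPL377174 and -0.98 (standard error 0.105, adjusted p = 8.05e-07) at AMPL371137. The other 7 of the 10 largest falls, AMPL366000, AMPL388335, AMPL371214, AMPL371668, AMPL371446, AMPL355618 and AMPL388655, averaged 15.1 to 37.4% in CD135/CD27-high cells and 34.1 to 57.8% in other cells. All 20 amplicons remained called when any 1 library was left out, with thinned reads, and against other cells matched on reads. Without the library pairing 9 of the 20 lost their call, and on summed reads 19 lost it in edgeR and 3 in DESeq2.

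**Figure D2:**
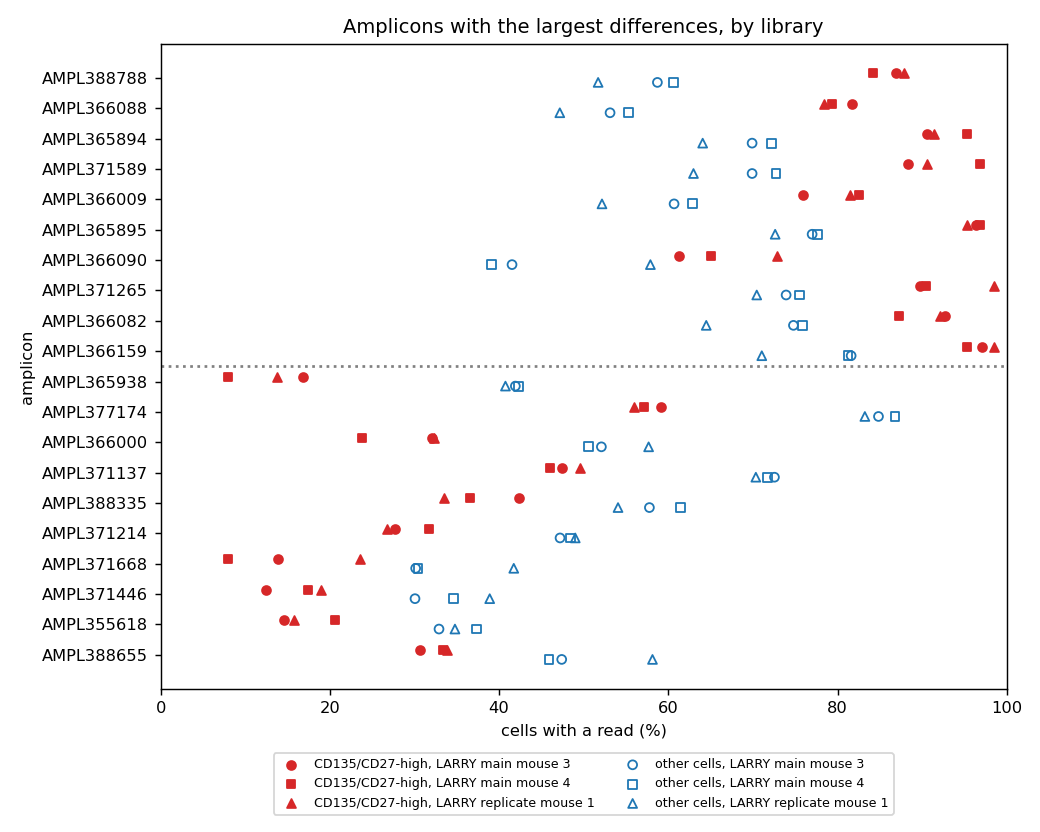
Percent of cells with a read at the 10 amplicons with the largest called rises (top) and the 10 with the largest called falls (bottom). Filled symbols are CD135/CD27-high cells and open symbols other cells, with 1 symbol shape per library. The amplicons were chosen for 1 sign in every library. At AMPL365938 CD135/CD27-high cells stayed at or below 16.8% while other cells stayed at or above 40.8%.

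At most called amplicons the share of CD135/CD27-high cells lay farther from 50% than that of other cells. Of the 75 amplicons called higher, 61 were already read in over 50% of other cells, and of the 94 called lower, 69 were read in under 50%. Over all 593 amplicons tested, 412 were read in over 50% and 181 in under 50% of other cells. The share of CD135/CD27-high cells was the farther from 50% at 69 of the 75 and at 74 of the 94, against 58.9% of all amplicons tested. A rise that starts above 50%, or a fall that starts below it, always leads away from 50%. These counts therefore largely restate the starting levels given above. The chance that 2 cells of a group differ at an amplicon, averaged over the 593 amplicons, was 30.3%, 30.1% and 26.8% among CD135/CD27-high cells, against 32.2%, 32.3% and 29.6% among other cells. The other cells are a mixture by design. In CD27-only cells, which passed the CD27 but not the CD135 threshold, it was 30.8%, 29.9% and 27.7%, close to the values of CD135/CD27-high cells.

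**Figure D3:**
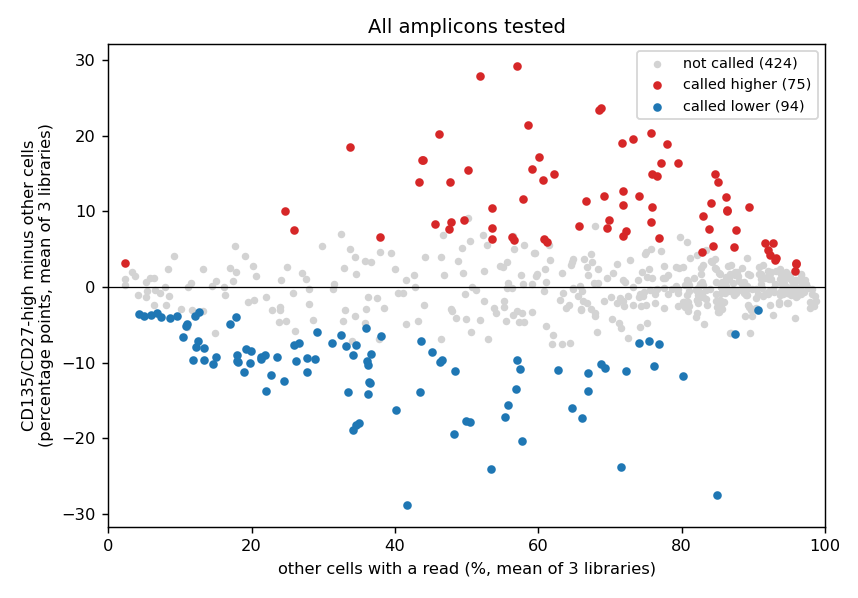
Difference in share between CD135/CD27-high and other cells against the share in other cells, each a mean of 3 libraries, for the 593 amplicons tested. The 75 amplicons called higher lie mostly to the right and the 94 called lower mostly to the left of 50%.

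The mean share over intermediate amplicons lay close in both groups. Over the 404 intermediate amplicons, those read in 25 to 90% of bone marrow cells on average, the mean share was 63.1%, 65.4% and 70.7% in CD135/CD27-high cells of main mouse 3, main mouse 4 and replicate mouse 1, against 63.8%, 64.9% and 69.7% in other cells. The differences of -0.752, 0.437 and 0.979 points averaged 0.222 ± 0.885 (SD, n = 3). The exact two-sided sign-flip permutation test gave p = 0.75, and with 3 libraries it cannot fall below 0.25, so this test could not have called a difference.

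The site differences carried over to animals that had no part in their choice. For each library, amplicons were called in the other 2 libraries alone and then read in the third. In main mouse 3, 45 of 47 amplicons called higher elsewhere were also higher and 56 of 56 called lower were also lower in CD135/CD27-high cells. In main mouse 4 these counts were 35 of 36 and 47 of 49, and in replicate mouse 1 they were 40 of 40 and 36 of 39. The share of the first set read in a cell minus that of the second set gave a score per cell in percentage points. It averaged 58.5, 61.0 and 54.3 points in CD135/CD27-high cells, against 35.0, 35.5 and 24.7 points in other cells. Of the CD135/CD27-high cells, 91.2%, 95.2% and 96.1% scored above the median of the other cells, and the area under the receiver operating curve was 0.832, 0.847 and 0.860. The SD of the score over cells was 12.4, 12.7 and 13.2 points in CD135/CD27-high cells, against 21.7, 24.5 and 24.4 points in other cells, which are a mixture. It was 12.9, 16.2 and 12.7 points in the CD27-only cells described next, so a narrow spread was not particular to CD135/CD27-high cells.

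The score varied with both proteins. Its amplicons were chosen to separate CD135/CD27-high cells, so the order of the groups is a description. Cells with CD150 in the bottom 50% that passed the CD27 but not the CD135 threshold (CD27-only, 944 cells) scored 46.7, 49.0 and 43.2 points. Cells that passed only CD135 (CD135-only, 462 cells) scored 41.5, 33.8 and 36.2 points, and those that passed neither 40.3, 39.7 and 33.8 points. CD135/CD27-high cells thus lay above all 3 groups in each library. Among cells in the lowest 25% for CD27, those in the top 25% for CD135 averaged 28.0 ± 4.82 points and those in the lowest 25% averaged 34.3 ± 14.03 points (SD, n = 3 libraries). Among cells in the top 25% for CD27 these means were 57.9 ± 3.40 and 44.1 ± 3.63 points. Where CD27 was low the libraries differed, with 33.5, 24.5 and 26.1 points in the top 25% for CD135 and 41.1, 43.6 and 18.2 points in the lowest 25%, in main mouse 3, main mouse 4 and replicate mouse 1. The 94 cells that passed both thresholds but had CD150 in the upper 50% scored 52.6, 59.5 and 45.9 points.

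**Figure D4:**
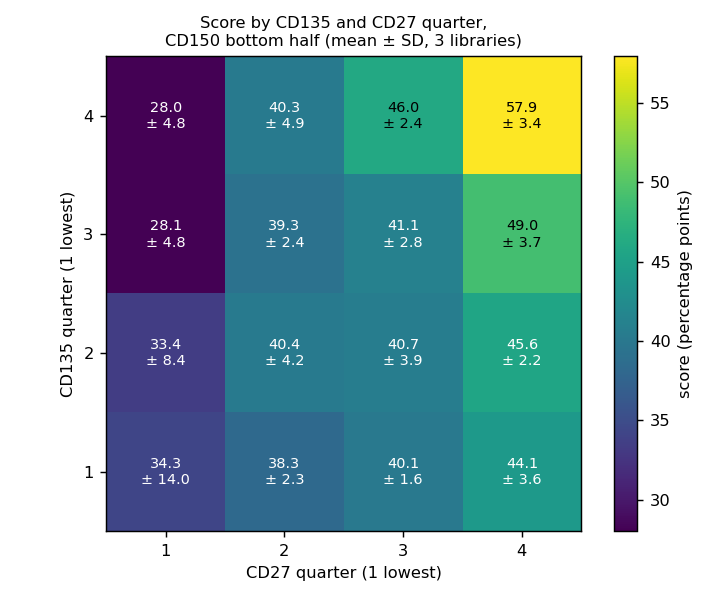
Mean held-out score (percentage points, colour and numbers, ± SD over 3 libraries) by rank of CD135 and of CD27, in steps of 25% of each library, among cells with CD150 in the bottom 50%. The upper right square, 57.9 points, holds the CD135/CD27-high cells.

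Direct tests set the CD135/CD27-high cells against each of these neighbours. The neighbours differed in tag totals. Medians were 175, 172 and 233 UMI in CD135-only cells and 296, 263 and 401 UMI in CD27-only cells, against 321, 271 and 408.5 UMI in CD135/CD27-high cells. Whether these totals bear on the counts of calls was not tested. Against CD135-only cells, 110 of 590 amplicons (18.6%) were called in edgeR, 57 (9.66%) higher and 53 (8.98%) lower. AMPL388335 was read in 42.3%, 36.5% and 33.5% of CD135/CD27-high cells, against 69.4%, 69.2% and 71.0% of CD135-only cells, and AMPL377174 in 59.1%, 57.1% and 55.9%, against 89.4%, 94.9% and 81.8%. At AMPL388335 the edgeR log odds difference was -1.39 (standard error 0.146, adjusted p = 6.60e-17, with the spread pooled over amplicons). In points the difference was -32.5 ± 5.25 (SD, n = 3). The largest rises, AMPL388576 (77.5% against 61.0% on average) and AMPL366090 (66.4% against 50.03%), lost their calls without main mouse 3, with log odds differences of 0.65 and 0.50. The count of calls was 42 without main mouse 3 and 54 without replicate mouse 1.

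Against CD27-only cells, 49 of 583 amplicons (8.4%) were called in edgeR, 40 (6.86%) higher and 9 (1.54%) lower. AMPL376917 was read in 67.2%, 55.6% and 59.1% of CD135/CD27-high cells, against 34.4%, 45.8% and 28.1% of CD27-only cells. AMPL366088 stood at 81.8%, 79.4% and 78.3%, against 54.8%, 60.4% and 56.7%. The edgeR log odds differences were 1.16 (standard error 0.144, adjusted p = 8.24e-05) at AMPL376917 and 1.10 (standard error 0.126, adjusted p = 4.55e-05) at AMPL366088. AMPL377174 was again lower, at 57.4% against 76.9% on average, and so was AMPL371137, at 47.7% against 62.7%, though AMPL371137 was not called without main mouse 3 (log odds difference -0.44). Without replicate mouse 1, 17 amplicons were called. At AMPL365938 the 2 groups were close, with 12.8% ± 4.50 of CD135/CD27-high and 18.5% ± 3.72 of CD27-only cells (SD, n = 3), while CD135-only cells stood at 43.6% ± 9.09. At AMPL376917, by contrast, CD135/CD27-high cells stood at 60.6% ± 5.95 and CD135-only cells at 59.8% ± 0.807.

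The contrast was larger with cells of a stem cell phenotype, in the top 25% for CD150 and for Sca-1 (438 cells). This group differed between libraries. Its CD150 medians were 6, 5.5 and 23.5 UMI in main mouse 3, main mouse 4 and replicate mouse 1, and its CD48 medians 25.5, 30 and 15 UMI. Of 597 amplicons, 160 (26.8%) were called by edgeR, 56 (9.38%) methylated in more and 104 (17.4%) in fewer CD135/CD27-high cells. The median difference was 16.6 points among rises and -24.3 points among falls. AMPL371668 was read in 13.9%, 7.94% and 23.6% of CD135/CD27-high cells, against 61.6%, 54.7% and 86.9% of CD150/Sca-1-high cells. AMPL365938 stood at 16.8%, 7.94% and 13.8%, against 63.8%, 54.7% and 70.8%. AMPL388788 and AMPL366088 went the other way, with 86.3% and 79.8% of CD135/CD27-high cells on average against 41.0% and 36.5% of CD150/Sca-1-high cells. By library, CD150/Sca-1-high cells stood at 47.8%, 51.6% and 23.7% at AMPL388788 and at 39.9%, 46.9% and 22.9% at AMPL366088. At each amplicon named here the difference was largest in replicate mouse 1. The edgeR log odds differences were -2.69 (standard error 0.249, adjusted p = 3.82e-05) at AMPL371668 and 2.37 (standard error 0.295, adjusted p = 0.000117) at AMPL388788.

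Cells in the top 25% for c-Kit and for CD16/32, an Fc receptor of myeloid progenitors, could be set against CD135/CD27-high cells in main mice 3 and 4, where CD16/32 had been measured (122 cells). Cells in both groups were left out. Of 599 amplicons, 127 (21.2%) were called in edgeR, 95 (15.9%) methylated in more and 32 (5.34%) in fewer CD135/CD27-high cells. The median log odds difference over all 599 was 0.20. AMPL388788 was read in 86.4% and 84.1% of CD135/CD27-high cells, against 26.5% and 23.5% of c-Kit/CD16/32-high cells, and AMPL371589 in 87.9% and 96.8%, against 34.9% and 29.4%. AMPL365938, at 16.7% and 7.94% against 59.0% and 61.8%, and AMPL377174, at 59.1% and 57.1% against 89.2% and 91.2%, were the largest falls. At AMPL388788 the edgeR log odds difference was 2.85 (standard error 0.254, adjusted p = 3.37e-24). As in every comparison, the edgeR p-values rest on a spread pooled over amplicons, and here 2 libraries give little of their own. The c-Kit/CD16/32-high cells had fewer reads, with medians of 36912 and 23377, and with all cells thinned to 21452 reads 54 amplicons were called, 41 higher and 13 lower, with a median log odds difference of 0.10. At both depths the 4 amplicons named here were called.

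Cells in the top 25% for CD41 and for CD61, integrin chains of megakaryocytes, differed from CD135/CD27-high cells unevenly between libraries (429 cells). No amplicon of 599 (0%) was called in edgeR, where 111 had an unadjusted p under 0.05, while limma called 33. Without replicate mouse 1, edgeR called 52, and with thinned reads 37. The held-out score of CD41/CD61-high cells was 39.8 and 44.2 points in main mice 3 and 4 and 14.9 points in replicate mouse 1. At AMPL371668, CD135/CD27-high cells ranged from 7.94 to 23.6% between libraries and CD41/CD61-high cells from 10.2 to 65.8%.

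**Figure D5:**
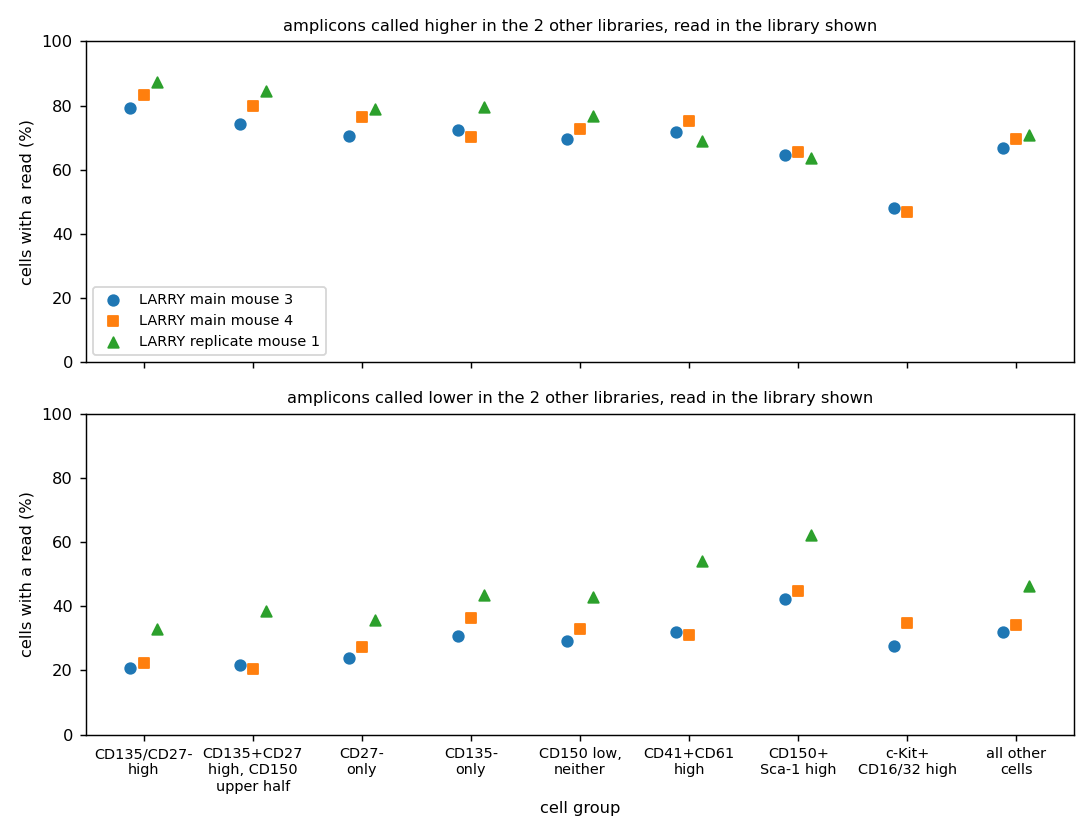
Mean percent of cells with a read over amplicons called higher (top) or lower (bottom) in CD135/CD27-high cells of the 2 other libraries, by cell group, with 1 point per library. CD135/CD27-high cells lie highest in the top panel in each library. In the bottom panel they lie lowest in main mouse 3 and replicate mouse 1, and just above the cells with both proteins and CD150 in the upper 50% in main mouse 4 (22.3% against 20.3%).

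Splits of the CD135/CD27-high cells along other proteins gave few calls in edgeR. Split at the median of CD127 within each library, no amplicon of 583 (0%) was called in edgeR or in limma, with 37 in edgeR and 50 in limma at an unadjusted p under 0.05. Data were simulated for this split with a spread between libraries set to 0.1 log odds. There edgeR found 23.9% of true log odds differences of 0.5 and 69.9% of true differences of 1. The simulation took the groups as given, with no error in sorting cells by CD127. With a median of 1 UMI in every library, CD127 sorted these cells on few counts. Median tag totals were 312, 211 and 360 UMI in its upper 50%, against 337, 317 and 499 UMI in its lower 50%. The lack of calls therefore does not show that methylation was independent of CD127. The same split for each of 16 other tags was chosen after seeing the data. It gave calls for Sca-1 (16 of 583, or 2.74%), CD61 (4, or 0.686%) and CD9 (3, or 0.515%, all higher) in edgeR. The other 13 tags had 0 calls in edgeR, with 14 to 76 amplicons at an unadjusted p under 0.05. For some of these 13 other settings made calls, among them 34 for CD49f in limma and 34 for CD48 with thinned reads. Of the 16 for Sca-1, 14 (2.4%) were methylated in more and 2 (0.343%) in fewer cells of the upper 50%, and of the 4 for CD61, 2 (0.343%) in more and 2 (0.343%) in fewer. AMPL377174 was read in 50.7%, 40.6% and 44.1% of the upper 50% for Sca-1, against 67.6%, 74.2% and 67.7% of the lower 50%. AMPL388770 stood at 60.9%, 75% and 81.9%, against 44.1%, 38.7% and 56.7%. These 2 amplicons were chosen for mention with their values known. The count for Sca-1 was 7 without main mouse 3, 11 without main mouse 4 and 0 without replicate mouse 1. The counts for CD61 were 0 without any 1 library, and those for CD9 were 0 without main mouse 3 or replicate mouse 1. Sca-1 had medians of only 4 to 6 UMI in these cells.

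The rule was not applied to the other libraries, whose bulk shares give the setting of the leading sites. AMPL388788 was read in 55.8% of cells of the transplantation library, 76.7% of native bone marrow, 62.3% and 70.1% of mature myeloid cells of lung and of bone marrow with blood, and 84.3% of mature cells from marrow and spleen. In lung endothelial cells it stood at 8.50%. AMPL365938 was read in 85.2% and AMPL371668 in 99.7% of lung endothelial cells. At 5 of the 10 largest rises lung endothelial cells were instead high, with 98.004% at AMPL365894, 99.5% at AMPL365895, 99.4% at AMPL366082, 98.1% at AMPL366159 and 94.8% at AMPL371589. AMPL377174 was read in 75.4% and 74.8% of cells of old and 59.7% and 54.5% of young native bone marrow. These single values carry no test.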

How the data were processed

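Reads per cell and amplicon are raw counts deposited by the authors, with a table for each library, made by scTAM-seq on the Mission Bio Tapestri per the labels' protocols, with build mm10 per the submitters' processing notes. UMI counts per cell and tag were also deposited, unnormalized, per the file headers. The sources used here do not give aligner, cell caller or filters. Main mouse 3, main mouse 4 and replicate mouse 1 held 5478, 3385 and 4687 cells, of which 2675, 1342 and 3103 had 100 or more tag UMI. Tags with under 1000 UMI in a library were left out. Doublets were not called.

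Libraries were the replicates, and cell groups were compared within a library, so the pairing comes from the shared library. Whether its p-values cover more than technical spread rests on the titles, which name separate mice. The test was edgeR 4.0.16 (R 4.3.3) with an intercept per library and cell group and a library effect on the log odds, for amplicons whose share averaged 2 to 98%. Alternatives used limma 3.58.1, DESeq2 1.42.0, other read calls, thinning to 21452 reads, matching on reads, other rules for members and single libraries left out. Thinning left out 5.11%, 23.8% and 4.72% of CD135/CD27-high and 7.64%, 25.0% and 5.76% of other cells. Text names the 10 largest called rises and falls against other cells and the 2 largest elsewhere, with 1 sign in every library. Members and lists were chosen with earlier results of these data known.

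The test was checked on simulated data with a spread between libraries of 0.1 log odds. This spread was set and not estimated from these data, and some amplicons varied more. Against CD27-only cells the difference at AMPL376917 was 32.8, 9.72 and 31.0 points in the 3 libraries. The rates given here hold for the simulated spread only. For CD135/CD27-high against other cells, the test recovered 77.8% of true log odds differences of 0.5 and 95.7% of true differences of 1. It called 2 of 415 amplicons without a difference, over 597 amplicons. For the CD127 split, on 601 amplicons, it recovered 23.9% and 69.9%.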

Additional observations from a re-analysis of the deposited data

How the results depend on the processing

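The count of amplicons called against other cells was within 1.5 times the main count with other read calls, thinned reads, other cells matched on reads, other UMI minimums, looser protein thresholds, no condition on CD150, uncentred tags, no filter on shares, limma and a median difference set to 0. It was 72 in DESeq2, 2 in edgeR and 73 in DESeq2 on summed reads, and 79 to 103 with 1 library left out. The cause was not tested. On summed reads 21 were higher and 52 lower in DESeq2, or 28.8% higher in place of 44.4%. Without the library pairing as a replicate block, 21 amplicons were called against other cells, 73 against CD150/Sca-1-high, 68 against c-Kit/CD16/32-high, 0 against CD135-only and 0 against CD27-only cells (73 and 34 at an unadjusted p under 0.05 in edgeR), and 0 in the Sca-1, CD61 and CD9 splits (17, 5 and 8). With 1 library left out, counts ran from 130 to 168 against CD150/Sca-1-high, 42 to 82 against CD135-only, 17 to 52 against CD27-only and 0 to 52 against CD41/CD61-high cells, where 5 reads gave 31, limma 33 and thinned reads 37. Thinned reads gave 54 against c-Kit/CD16/32-high cells, where leaving out 1 library leaves no residual degrees of freedom and was not run. The difference over intermediate amplicons was 1.21 points without the most covered and most stained 5% of cells. The splits within CD135/CD27-high cells depended on the setting. At 5 reads edgeR called 16 for CD48, 2 for c-Kit, 1 for CD9, 21 for I-A/I-E, 5 for ESAM and 38 for CD49f, and with thinned reads 34, 2, 4 and 14 for CD48, I-A/I-E, ESAM and CD49f. Limma called 7 for CD61, 2 for CD115, 1 for FceRIa, 6 for I-A/I-E, 1 for ESAM and 34 for CD49f. With 1 library left out, ranges were 0 to 5 for CD48 and I-A/I-E, 0 to 11 for Sca-1, 0 to 1 for CD41, 0 for CD61 and 0 to 3 for CD9 and CD49f.

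Of the 20 amplicons named against other cells, 20 kept direction under all 21 alternatives, 9 lost their call without the block, 19 on summed reads in edgeR and 3 in DESeq2 there. Counting intervals were widest in main mouse 4, with 63 CD135/CD27-high cells.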
